A study of Homo sapiens with 12 samples.

Results

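JIMT1 cells grown for 4 days without attachment were set against the same cells grown for 4 days on a basement membrane gel. PH4d are cells on plastic coated with polyHEMA (poly(2-hydroxyethyl methacrylate)), a film to which cells cannot attach. MG4d are cells laid on a layer of growth factor reduced Matrigel, an extract of laminins, collagen and other basement membrane proteins. The 2 PH4d and 2 MG4d arrays were taken by their titles from the 12 arrays of the series, whose other groups are PH7d, MG7d, a monolayer grown for 7 days (2D7d) and xenograft tumors. JIMT1 is a human breast cancer cell line that carries much HER2, the receptor that trastuzumab targets, and does not respond to that drug. No group carried a transgene or received a drug, and all cultures held insulin and fetal bovine serum. The gel differed from the film in other ways as well. Matrigel was dissolved with Dispase, a protease, before RNA isolation. The study's account of its drug screens gives less serum in Matrigel and denser seeding on polyHEMA. It gives neither separately for the array cultures, which were grown in another plate format. Such differences cannot be told apart here from the effect of the gel itself. The labels call the 2 arrays of a group biological replicates.

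Cells that lose contact with a matrix lose integrin signals that normally sustain growth and survival, and clumps without a gel can differ from gel-borne spheroids in oxygen, nutrients and cell density. Among the programs that cells can switch on are the interferon-stimulated genes. Interferons bind receptors that activate JAK kinases, a complex called ISGF3 that holds IRF9 then binds a promoter element, the ISRE, and the genes so induced block viral entry, RNA and protein synthesis and raise antigen presentation by MHC class I.

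Each array gave a mean bead signal and a detection p-value for 47323 probes. After background correction the arrays were brought to a common distribution and expressed as log2 values, where a step of 1 is a doubling, and 10970 genes detected in at least 1 group of the series were tested with limma over all 12 arrays. A gene was called when its adjusted p was under 0.05 and it differed by at least 2-fold. The PH4d arrays detected 18430 and 14530 probes and the MG4d arrays 16407 and 15533. The PH4d replicates stood far apart: 4183 genes differed at least 2-fold between them, against 20 between the MG4d replicates, and the median difference between replicates was 0.80 in PH4d and 0.16 in MG4d on the log2 scale. For this reason the levels on single arrays are given for the genes described in most detail.

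The markers fit the labelled cells in part. All 12 measured genes of the JIMT1 marker list were detected on all 4 arrays, among them ERBB2, KRT8, KRT19 and EPCAM, and their summed linear signal was 74880 and 77310 in PH4d and 55260 and 63180 in MG4d. ESR1, the estrogen receptor gene, was also detected on all 4 arrays, at levels of 7.84 and 7.07 in PH4d and 6.69 and 7.53 in MG4d. The markers of other cell types were few and low. Of 10 leukocyte markers 5 were measured, with a summed signal of 885.0 and 1387 in PH4d and 711.5 and 699.3 in MG4d, and PTPRC, CD3D, CD3E, LYZ and CD163 were not measured. CSF1R, the receptor of a macrophage growth factor, was called higher with a log2 difference of 1.55 ± 0.34 (SE), adjusted p = 0.0178. Of 8 endothelial markers 3 were measured, with a summed signal of 621.4 and 1071 in PH4d and 432.4 and 470.5 in MG4d, and PECAM1, an adhesion molecule, was called higher with a log2 difference of 1.12 ± 0.31 (SE), adjusted p = 0.0428. Of 10 fibroblast markers 4 were measured, and the sums were 175.8 and 198.7 in PH4d and 139.3 and 152.3 in MG4d. The part of such cells in the results was not tested. The call of CSF1R ended without PH4d replicate 2, MG4d replicate 1 or MG4d replicate 2 (adjusted p of 0.0739 to 0.118). The call of PECAM1 ended without PH4d replicate 1, MG4d replicate 1 or MG4d replicate 2 (adjusted p of 0.0837 to 0.254).

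Limma called 1347 genes, 913 higher in PH4d (8.32% of the 10970) and 434 lower in PH4d (3.96%). Of those called higher, 250 were detected on neither MG4d array, and of those called lower, 73 on neither PH4d array. For such genes the 2-fold rule used values below detection, and the bound of the fold can be less than 2-fold, as for IFNB1, LAMA1 and DLC1. They are part of all the counts that follow. With 2 arrays a group, both PH4d arrays lay above both MG4d arrays for 26.6% of all genes and below both for 24.7%, and no called gene overlapped. Both PH4d arrays lay at least 2-fold above both MG4d arrays for 617 genes (5.62%) and at least 2-fold below both for 247 genes (2.25%). Taken alone, PH4d replicate 1 was at least 2-fold above the MG4d mean for 1063 genes and below it for 759, and PH4d replicate 2 was above it for 2134 and below it for 2398. The count of called genes moved with single arrays. It was 3483 without PH4d replicate 1, 959 without PH4d replicate 2, 421 without MG4d replicate 1 and 369 without MG4d replicate 2. Fewer cells of a type and less RNA per cell cannot be told apart in such bulk RNA.

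**Figure D1:**
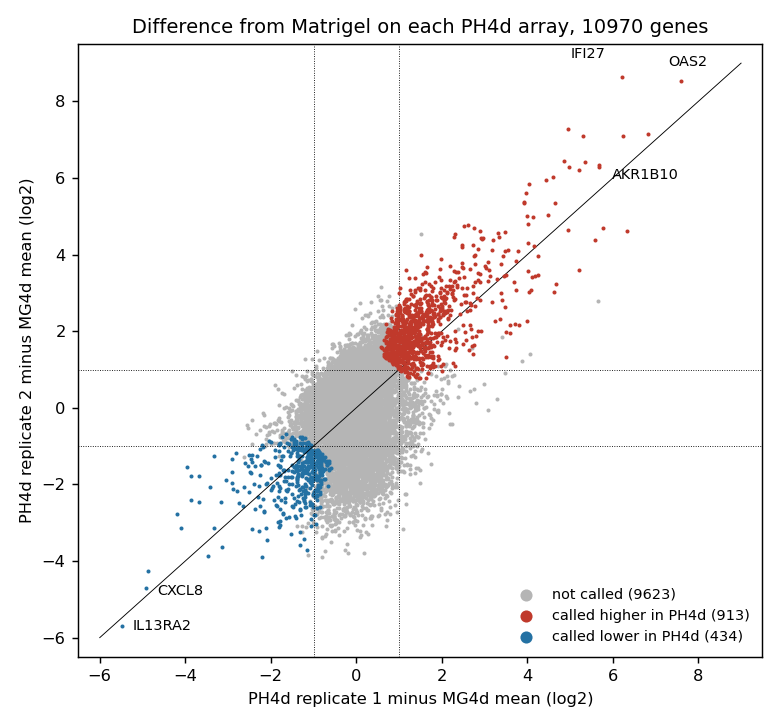
Each point is 1 of the 10970 genes, placed by its log2 difference from the MG4d mean on PH4d replicate 1 (horizontal) and on PH4d replicate 2 (vertical), with called genes in color and dotted lines at 2-fold. The cloud is taller than it is wide, with 4532 genes past 2-fold on replicate 2 and 1822 on replicate 1, and the called genes lie in the corners where both replicates moved the same way.

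Most of the largest rises were of antiviral genes. Of the 15 genes with the largest rise among those that passed the test, 11 are on the list of interferon-stimulated genes. The order is by fitted difference, which is no bound for genes that MG4d did not detect, so it is not certain near its end: IFIT1 (31.5-fold) and CCL5 (25.1-fold) are outside the 15, above the bound of IFI44L. The other 4 of the 15 are HLA-B, a chain of MHC class I, AKR1B10, PLAAT4 and TMEM140, a transmembrane protein with levels of 10.03 and 11.09 on the PH4d arrays, against 4.66 and 4.71 on the MG4d arrays. OAS2, an oligoadenylate synthetase that activates RNA decay on sensing double-stranded RNA, had levels of 12.20 and 13.14 on the PH4d arrays, against 4.60 and 4.61 on the MG4d arrays. Neither MG4d array detected it, and it was at least 118-fold higher, adjusted p = 0.00143. MX1, a dynamin-like GTPase that traps viral nucleocapsids, had levels of 14.22 and 14.55 on the PH4d arrays, against 7.44 and 7.35 on the MG4d arrays, a log2 difference of 7.00 ± 0.75 (SE), adjusted p = 0.000981. The 2 PH4d arrays were close to each other for MX1, and its rise was 128-fold. IFI27, a small mitochondrial membrane protein, had levels of 10.71 and 13.13 on the PH4d arrays, against 4.44 and 4.54 on the MG4d arrays, and was at least 70.1-fold higher, adjusted p = 0.00202. MX2, a related GTPase, which acts at the nuclear pore, had levels of 10.85 and 11.70 on the PH4d arrays, against 4.65 and 4.58 on the MG4d arrays, and was at least 44.9-fold higher, adjusted p = 0.000539. LAMP3, a lysosomal membrane glycoprotein, had levels of 10.71 and 11.39 on the PH4d arrays, against 4.85 and 5.23 on the MG4d arrays, and was at least 38.4-fold higher, adjusted p = 0.0009. The transmembrane proteins that stop viruses from fusing with the cell were all higher on both PH4d arrays. IFITM1 had levels of 9.62 and 11.96 on the PH4d arrays, against 4.69 and 4.66 on the MG4d arrays, and was at least 32.1-fold higher, adjusted p = 0.00352. IFITM2 had levels of 12.36 and 13.77 on the PH4d arrays, against 7.49 and 8.01 on the MG4d arrays, a log2 difference of 5.32 ± 0.49 (SE), adjusted p = 0.000602. IFITM3 had levels of 12.51 and 14.10 on the PH4d arrays, against 7.72 and 7.59 on the MG4d arrays, a log2 difference of 5.65 ± 0.54 (SE), adjusted p = 0.000627. Signals of these 3 similar genes may be shared by their probes. RSAD2 (viperin, which makes a chain-terminating nucleotide) had levels of 11.22 and 10.13 on the PH4d arrays, against 5.70 and 5.20 on the MG4d arrays, and was at least 29.7-fold higher, adjusted p = 0.00196. OAS3, another oligoadenylate synthetase, had levels of 10.54 and 11.83 on the PH4d arrays, against 5.79 and 5.32 on the MG4d arrays, a log2 difference of 5.63 ± 0.69 (SE), adjusted p = 0.00144. The remaining interferon-stimulated gene of the 15, IFI44L, was at least 17.6-fold higher, adjusted p = 0.0042. It was higher on PH4d replicate 1 than on replicate 2, at levels of 10.79 and 9.05 in PH4d and 4.49 and 4.41 in MG4d.

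**Figure D2:**
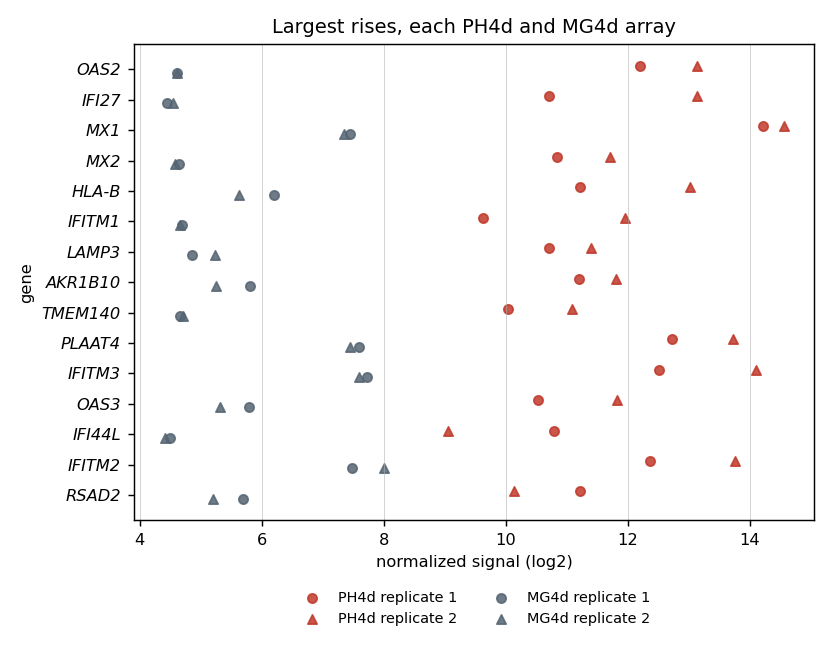
Normalized log2 signal (horizontal) of the 15 genes with the largest rise on each array, with PH4d in red and MG4d in gray, replicate 1 as circles and replicate 2 as triangles. All red points lie right of all gray points of the same gene, by 4.35 (IFITM2) to 7.60 (OAS2) on the log2 scale at the nearest pair.

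In the list of 60 interferon-stimulated genes, 57 were measured, 46 were called higher and none lower (80.7% against 8.32% of all genes). The median log2 difference of the 57 was 3.35, against -0.03 over all genes. It was 3.27 for PH4d replicate 1 minus MG4d replicate 1 and 3.16 for PH4d replicate 2 minus MG4d replicate 2. Neither MG4d array detected 20 of the 57, and with those at their lower bound the median was 2.87. ISG15, a ubiquitin-like modifier, was already bright in MG4d and had levels of 14.27 and 14.56 on the PH4d arrays, against 10.24 and 10.27 on the MG4d arrays, a log2 difference of 4.16 ± 0.39 (SE), adjusted p = 0.000602. IFIT1, which binds viral RNA lacking a methylated cap, had levels of 13.46 and 12.26 on the PH4d arrays, against 7.99 and 7.78 on the MG4d arrays, a log2 difference of 4.98 ± 0.86 (SE), adjusted p = 0.00633. In both groups IFIT1 was well above background, but its PH4d replicates differed by more than 2-fold. The 11 genes that were not called include IFIT3, at levels of 12.28 and 9.43 in PH4d and 6.49 and 6.77 in MG4d (adjusted p = 0.0571), and DDX60, a helicase that aids RNA sensing, at 10.33 and 7.67 in PH4d and 6.42 and 6.49 in MG4d (adjusted p = 0.143). EIF2AK2, the kinase PKR that stops translation, had groups that overlapped, at 11.44 and 9.64 in PH4d and 10.56 and 10.54 in MG4d. The count was 43 without PH4d replicate 1, 45 without PH4d replicate 2, 34 without MG4d replicate 1 and 34 without MG4d replicate 2. It was 27 when only the 4 arrays of the comparison entered the fit. The call of IFIT1 ended without MG4d replicate 1 or MG4d replicate 2 (adjusted p of 0.0507 to 0.0601).

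Across the series the list stood high in PH4d and low in MG4d. Its median level was 10.92 and 10.20 in PH4d, against 6.41 and 6.44 in MG4d. The 2 7-day Matrigel arrays were at 6.63 and 6.57, the 7-day polyHEMA arrays at 11.62 and 9.66, the monolayer arrays at 6.37 and 7.45, and the xenografts at 9.40 and 8.89. MHC class I genes had a median level of 10.76 and 11.93 in PH4d and 9.17 and 9.16 in MG4d, and 10.42 and 11.02 in the monolayer.

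**Figure D3:**
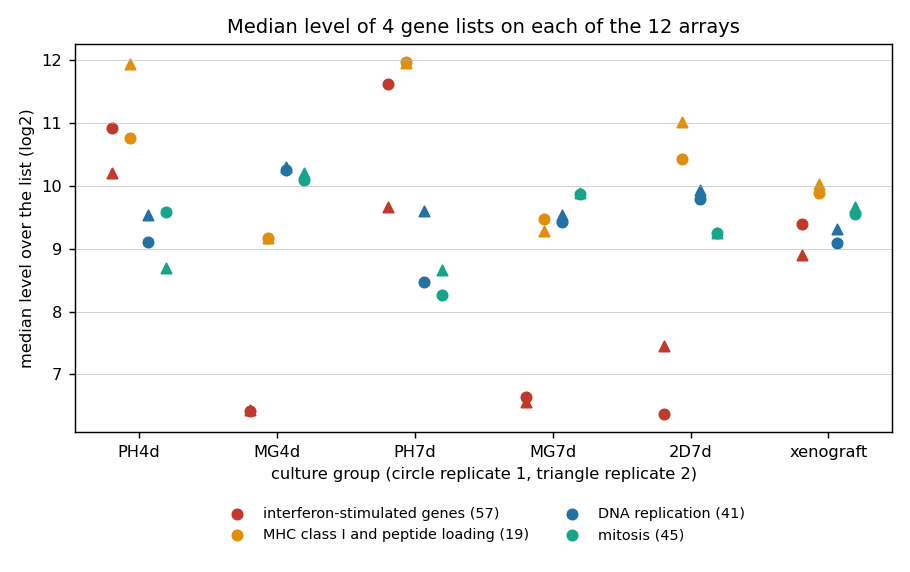
Median log2 level over each of 4 gene lists (colors) on each of the 12 arrays, grouped by culture, with replicate 1 as circles and replicate 2 as triangles. The interferon-stimulated genes lie at 10.92 and 10.20 in PH4d, against 6.41 and 6.44 in MG4d, and the replication and mitosis genes lie below MG4d in PH4d.

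RefSeq promoter windows (GRCh38.p14, from 250 bases before to 50 bases after the gene start) were read for the letters of the ISRE core, GAAA, any 2 bases and GAAA again, on either strand, because this is the element that ISGF3 binds. The window held a match in 31 of the 49 promoters found for the list (63.3%), against 996 of 27305 promoters in all (3.65%). Matches in the promoters of 7 members are printed here in the gene's 5′ to 3′ direction, with the matching letters in capitals, because they show the element beside the values above. The windows are IFI27 chr14:94110613-94110665 (plus strand), IFITM1 chr11:313985-314024 (plus strand), IFITM3 chr11:320871-320927 (minus strand), OAS3 chr12:112938316-112938355 (plus strand), IFI44L chr1:78620360-78620399 (plus strand), IFIT1 chr10:89392492-89392544 (plus strand) and ISG15 chr1:1013369-1013414 (plus strand).
IFI27: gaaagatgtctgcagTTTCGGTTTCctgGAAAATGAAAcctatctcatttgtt
IFITM1: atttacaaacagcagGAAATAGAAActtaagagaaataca
IFITM3: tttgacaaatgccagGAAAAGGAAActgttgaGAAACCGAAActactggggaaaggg
OAS3: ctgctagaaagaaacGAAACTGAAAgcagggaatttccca
IFI44L: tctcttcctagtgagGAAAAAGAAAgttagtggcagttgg
IFIT1: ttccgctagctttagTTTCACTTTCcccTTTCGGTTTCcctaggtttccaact
ISG15: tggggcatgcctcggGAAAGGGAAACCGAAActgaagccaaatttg
The matches of IFI27, IFITM3 and IFIT1 were 2 each and those of ISG15 overlapped. IFI27 carried the element once on each strand, IFIT1 carried it on the opposite strand only, with TTTC in place of GAAA, and the others in the gene's own direction. The 7 are a selection. DDX60, which was not called, also held 2 matches. Of the largest rises, OAS2, MX1, MX2, LAMP3 and RSAD2 gave nothing to print, for want of a match before the gene start or of a promoter. A match is a description of the letters only. Among all genes called higher, 51 of 709 promoters found held a match (7.19%), and among the genes called lower 5 of 320 (1.56%).

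Upstream of these genes, the components of sensing and signaling moved less uniformly. Of 13 measured RNA and DNA sensors and adaptors, 6 were called higher and 1 lower (46.2% and 7.69%, against 8.32% and 3.96% of all genes). Fewer of them were called higher without MG4d replicate 1 or MG4d replicate 2. RIGI, which senses short RNA with a triphosphate end, was at least 6.5-fold higher, adjusted p = 0.015, and DHX58, its relative that tunes both RNA sensors, was at least 3.3-fold higher, adjusted p = 0.00139. IFIH1 (MDA5), the sensor of long double-stranded RNA, had a log2 difference of 2.98 ± 0.82 (SE), adjusted p = 0.0414. The adaptor STING1, which relays cytosolic DNA signals, had a log2 difference of 2.79 ± 0.46 (SE), adjusted p = 0.0053, and MYD88, the adaptor of Toll-like receptors, had a log2 difference of 2.78 ± 0.40 (SE), adjusted p = 0.00266. CGAS, the DNA sensor that makes the STING1 ligand, was called lower, at levels of 7.70 and 7.69 on the PH4d arrays, against 9.61 and 8.99 on the MG4d arrays, a log2 difference of -1.60 ± 0.25 (SE), adjusted p = 0.0039. Neither MG4d array detected the 2 ligand genes called higher. IFNL1, a type III interferon, had levels of 6.49 and 8.97 on the PH4d arrays, against 5.15 and 4.82 on the MG4d arrays and was at least 3.85-fold higher, adjusted p = 0.0243, and IFNB1, a type I interferon, was at least 1.29-fold higher, adjusted p = 0.00926. The receptor chains IFNAR1, IFNAR2, IFNLR1 and IL10RB were not called. IRF9, the DNA-binding member of ISGF3, had levels of 11.37 and 11.94 on the PH4d arrays, against 7.81 and 7.83 on the MG4d arrays, a log2 difference of 3.84 ± 0.41 (SE), adjusted p = 0.000981. STAT6, the signal transducer of IL-4-type cytokines, had a log2 difference of 2.11 ± 0.25 (SE), adjusted p = 0.00134, and SOCS1, a feedback inhibitor of JAK kinases, was at least 3.24-fold higher, adjusted p = 0.0235. The calls of RIGI, IFNL1 and IFNB1 ended without MG4d replicate 1 or MG4d replicate 2 (adjusted p of 0.0565 to 0.154). The call of IFIH1 ended without PH4d replicate 1, MG4d replicate 1 or MG4d replicate 2 (adjusted p of 0.0883 to 0.188). The call of STING1 ended without MG4d replicate 2 (adjusted p = 0.0525). The call of SOCS1 ended without PH4d replicate 2, MG4d replicate 1 or MG4d replicate 2 (adjusted p of 0.0511 to 0.138).

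Genes of antigen presentation were called higher in most of their list. Of 19 measured MHC class I and peptide-loading genes, 14 were called higher and none lower (73.7% against 8.32% of all genes), with a median log2 difference of 1.75. The median was 1.21 for PH4d replicate 1 minus MG4d replicate 1 and 2.31 for PH4d replicate 2 minus MG4d replicate 2. HLA-B, a class I heavy chain, had levels of 11.22 and 13.02 on the PH4d arrays, against 6.20 and 5.62 on the MG4d arrays, a log2 difference of 6.20 ± 0.57 (SE), adjusted p = 0.000602. HLA-E, the ligand of an inhibitory receptor on natural killer cells, had a log2 difference of 2.47 ± 0.32 (SE), adjusted p = 0.00175. B2M, the light chain that all class I molecules share, had a log2 difference of 1.48 ± 0.27 (SE), adjusted p = 0.00745. TAP1, the peptide pump, had a log2 difference of 1.75 ± 0.34 (SE), adjusted p = 0.01, TAPBP, which holds empty class I at the pump, had a log2 difference of 2.32 ± 0.34 (SE), adjusted p = 0.00324, and the 3 inducible proteasome subunits PSMB8, PSMB9 and PSMB10 had 2.02 ± 0.40, 2.31 ± 0.46 and 2.03 ± 0.36. HLA probes can bind several alleles and genes of the family. HLA-B, HLA-C, HLA-E and HLA-F kept their calls whichever array was left out. Most other calls of the list ended without MG4d replicate 1 or MG4d replicate 2. Without MG4d replicate 2 this held for most of B2M, TAP1 and TAPBP. The 28 measured subunits of the constitutive proteasome had no call in either direction, but 7 were called lower without PH4d replicate 1. The count of 14 was 17 without PH4d replicate 1, 11 without PH4d replicate 2, 6 without MG4d replicate 1 and 5 without MG4d replicate 2.

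Inflammatory genes split. The interferon-type chemokine CCL5, which draws T cells, had levels of 10.77 and 12.23 on the PH4d arrays, against 6.79 and 6.90 on the MG4d arrays, a log2 difference of 4.65 ± 0.51 (SE), adjusted p = 0.00102. CXCL8, which draws neutrophils, went the other way, with levels of 6.70 and 6.92 on the PH4d arrays, against 11.44 and 11.79 on the MG4d arrays, a log2 difference of -4.80 ± 0.61 (SE), adjusted p = 0.00166. The 2 PH4d arrays lay within 0.22 of each other for CXCL8. CXCL2 was at least 3.73-fold lower, adjusted p = 0.0102, and CCL20 was at least 2.34-fold lower, adjusted p = 0.00816. Of the 6 chemokines measured, 2 were called higher (CCL5 and CXCL16) and 3 lower (33.3% and 50%, against 8.32% and 3.96% of all genes). The count lower was 3 without PH4d replicate 1, 4 without PH4d replicate 2, 1 without MG4d replicate 1 and 1 without MG4d replicate 2. Among 20 measured NF-κB genes and targets, 3 were called lower and none higher (15% against 3.96%). The direction of this list rested on 1 array. Without PH4d replicate 1 it had 5 genes called higher and 2 lower, and its median level was 7.23 and 8.52 in PH4d, against 7.91 and 7.78 in MG4d, so that the PH4d replicates lay on opposite sides of MG4d. TNFAIP3, which shuts off NF-κB signaling, had levels of 8.33 and 9.58 on the PH4d arrays, against 11.96 and 12.08 on the MG4d arrays, a log2 difference of -3.07 ± 0.38 (SE), adjusted p = 0.00148. TNF was at least 2.71-fold lower, adjusted p = 0.00146, and NFKBIA, the inhibitor that NF-κB itself induces, had levels of 12.21 and 12.77 on the PH4d arrays, against 13.57 and 13.77 on the MG4d arrays, a log2 difference of -1.18 ± 0.28 (SE), adjusted p = 0.0237. NFKB1, RELA, RELB, IL6 and ICAM1 were not called. The calls of CXCL2 and CCL20 ended without MG4d replicate 1 or MG4d replicate 2 (adjusted p of 0.0507 to 0.0962). The call of CXCL16 ended without PH4d replicate 2, MG4d replicate 1 or MG4d replicate 2 (adjusted p of 0.116 to 0.157). The call of NFKBIA ended without PH4d replicate 1, MG4d replicate 1 or MG4d replicate 2 (adjusted p of 0.106 to 0.165), where NFKBIA was at a log2 difference of -0.90 without PH4d replicate 1.

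Promoters of these NF-κB genes were read for a form of the κB site, GGG, any 2 bases and TTTCC, on either strand. This motif was chosen after the values had been seen. The letters were in 7 of 22 promoters of the NF-κB list (31.8%) and in 6 of 8 promoters of the chemokine list (75.0%), against 523 of 27305 (1.92%). Those of 4 genes that were called lower are printed in the same way, because these genes fell while the interferon genes rose. The windows are TNFAIP3 chr6:137867177-137867228 (plus strand), CXCL2 chr4:74099249-74099288 (minus strand), CCL20 chr2:227813748-227813787 (plus strand) and NFKBIA chr14:35404806-35404845 (minus strand).
TNFAIP3: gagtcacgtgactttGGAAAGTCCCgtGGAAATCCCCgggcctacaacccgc
CXCL2: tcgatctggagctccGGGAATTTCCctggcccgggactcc
CCL20: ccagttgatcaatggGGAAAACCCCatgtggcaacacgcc
NFKBIA: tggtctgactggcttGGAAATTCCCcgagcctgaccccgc
TNFAIP3 held 2 matches, both on the opposite strand. The 4 are a selection. CXCL8 and TNF, which also fell, gave nothing to print, for want of a match far enough before the gene start or of a promoter. Of all genes called lower, 8 of 320 promoters held a match (2.50%), and of genes called higher, 17 of 709 (2.40%).

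The largest falls were not antiviral genes. IL13RA2, a decoy receptor of interleukin 13, had levels of 4.84 and 4.61 on the PH4d arrays, against 10.45 and 10.16 on the MG4d arrays. Neither PH4d array detected it, and it was at least 23.4-fold lower, adjusted p = 0.000273. MARCHF4, a membrane-bound ubiquitin ligase, had levels of 4.70 and 5.32 on the PH4d arrays, against 9.44 and 9.69 on the MG4d arrays, and was at least 14-fold lower, adjusted p = 0.000327. ALPK2, an atypical protein kinase, had levels of 5.36 and 4.96 on the PH4d arrays, against 8.86 and 8.82 on the MG4d arrays, and was at least 8.45-fold lower, adjusted p = 0.000327. COL13A1, a collagen that spans the cell membrane, had levels of 5.15 and 5.34 on the PH4d arrays, against 8.57 and 8.38 on the MG4d arrays, and was at least 6.57-fold lower, adjusted p = 0.000327. The replicates of these 4 genes differed by less than 1 on the log2 scale. FOSB, an AP-1 subunit, had levels of 6.45 and 7.42 on the PH4d arrays, against 10.58 and 10.53 on the MG4d arrays, a log2 difference of -3.62 ± 0.36 (SE), adjusted p = 0.000723. PAPPA, a protease that cleaves insulin-like growth factor binding proteins, had a log2 difference of -3.38 ± 0.43 (SE), adjusted p = 0.00169, and HS3ST3A1, which sulfates heparan sulfate, had a log2 difference of -3.13 ± 0.52 (SE), adjusted p = 0.00513. TMEM158, a membrane protein induced by RAS, had a log2 difference of -3.48 ± 0.59 (SE), adjusted p = 0.00592, CTNNAL1, a relative of α-catenin, had a log2 difference of -3.05 ± 0.56 (SE), adjusted p = 0.00836, and KISS1, the precursor of kisspeptins, had a log2 difference of -2.83 ± 0.65 (SE), adjusted p = 0.0211. The other genes among the 15 were MYH15, a myosin heavy chain, at least 4.11-fold lower, adjusted p = 0.00246 (HBEGF, outside the 15, was 6.69-fold lower), SNORD16, a small nucleolar RNA, -2.80 ± 0.27, adjusted p = 0.000635, and STAMBPL1, a deubiquitinase, -2.77 ± 0.45, adjusted p = 0.00492. The calls of HS3ST3A1 and STAMBPL1 ended without MG4d replicate 2 (adjusted p of 0.0538 to 0.0545). The calls of TMEM158, CTNNAL1 and KISS1 ended without MG4d replicate 1 or MG4d replicate 2 (adjusted p of 0.0514 to 0.13).

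**Figure D4:**
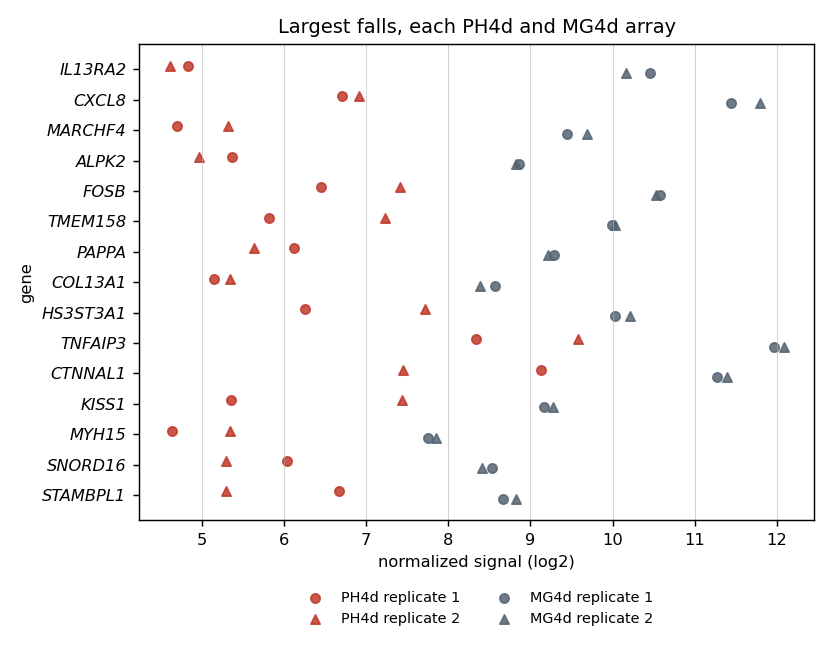
Normalized log2 signal (horizontal) of the 15 genes with the largest fall on each array, with PH4d in red and MG4d in gray, replicate 1 as circles and replicate 2 as triangles. All red points lie left of all gray points of the same gene, and the PH4d replicates of IL13RA2, at 4.84 and 4.61, are the farthest from MG4d.

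Genes of DNA replication and mitosis were called only lower in PH4d. Of 41 measured DNA replication genes 11 were called lower and none higher (26.8% against 3.96%), with a median log2 difference of -0.91. The median was -0.99 for PH4d replicate 1 minus MG4d replicate 1 and -0.89 for PH4d replicate 2 minus MG4d replicate 2. POLE2, a subunit of DNA polymerase epsilon, had levels of 7.29 and 6.92 on the PH4d arrays, against 9.13 and 9.03 on the MG4d arrays, a log2 difference of -1.98 ± 0.27 (SE), adjusted p = 0.0021. PRIM1, the primase, had a log2 difference of -1.75 ± 0.25 (SE), adjusted p = 0.00288, MCM10, which helps to activate the replicative helicase, had a log2 difference of -1.88 ± 0.29 (SE), adjusted p = 0.00407, and E2F8, an atypical E2F repressor, had a log2 difference of -1.83 ± 0.31 (SE), adjusted p = 0.0059. PCNA, the sliding clamp, had levels of 10.59 and 10.33 on the PH4d arrays, against 11.61 and 11.33 on the MG4d arrays and passed with a log2 difference of -1.01 ± 0.29 (SE), adjusted p = 0.0459. The count was 13 without PH4d replicate 1, 8 without PH4d replicate 2, 3 without MG4d replicate 1 and 4 without MG4d replicate 2. Of 45 measured mitosis genes 8 were called lower and none higher (17.8%), with a median log2 difference of -1.12. The median was -0.68 for PH4d replicate 1 minus MG4d replicate 1 and -1.27 for PH4d replicate 2 minus MG4d replicate 2. KIF23, a motor of the midbody, had levels of 9.0 and 6.90 on the PH4d arrays, against 10.04 and 9.84 on the MG4d arrays, and NEK2, a centrosome kinase, had 8.72 and 7.43 on the PH4d arrays, against 9.96 and 9.88 on the MG4d arrays. In 30 of the 45 genes PH4d replicate 1 was the higher PH4d array. MKI67, the proliferation marker, was not called, at 5.99 and 5.07 in PH4d and 6.28 and 5.91 in MG4d. The weakest detected signals of any probe were 5.42 and 6.10 on the PH4d arrays and 5.70 and 5.87 on the MG4d arrays. MKI67 was therefore near the floor, and its lack of a call says little. The mitosis count was 24 without PH4d replicate 1, 1 without PH4d replicate 2, 0 without MG4d replicate 1 and 0 without MG4d replicate 2. The call of MCM10 ended without MG4d replicate 2 (adjusted p = 0.052). The call of E2F8 ended without MG4d replicate 1 (adjusted p = 0.0615). The call of KIF23 ended without PH4d replicate 2, MG4d replicate 1 or MG4d replicate 2 (adjusted p of 0.113 to 0.214). The call of NEK2 ended without MG4d replicate 1 or MG4d replicate 2 (adjusted p of 0.0815 to 0.0879).

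Cell cycle arrest genes moved in both directions. CDKN1A (p21), which inhibits cyclin-dependent kinases, had levels of 11.45 and 12.36 on the PH4d arrays, against 10.46 and 10.50 on the MG4d arrays, a log2 difference of 1.43 ± 0.34 (SE), adjusted p = 0.0243, and MXD4, which competes with MYC for MAX, had a log2 difference of 1.60 ± 0.21 (SE), adjusted p = 0.00194. GADD45A, a stress gene that pauses the cycle, had a log2 difference of -1.77 ± 0.32 (SE), adjusted p = 0.0071. MYC itself was not called, at 10.72 and 11.07 in PH4d and 10.95 and 11.12 in MG4d, a log2 difference of -0.14 ± 0.25 (SE), adjusted p = 0.752. Of 16 BCL2-family genes none was called, and the closest were BCL2L2 (0.74 ± 0.23, adjusted p = 0.0606) and HRK (1.06 ± 0.35, adjusted p = 0.074). BMF, which neither MG4d array detected, was at least 1.29-fold higher, adjusted p = 0.154. The lack of calls rested on PH4d replicate 1, without which the family had calls. HRK was at a log2 difference of 1.61 without PH4d replicate 1 and 0.52 without PH4d replicate 2. TNFSF10 (TRAIL), a death ligand that interferon can induce, was at least 11.3-fold higher, adjusted p = 0.00267. Its levels were 9.44 and 9.13 on the PH4d arrays, against 4.59 and 4.37 on the MG4d arrays. CFLAR, which blocks caspase 8 at the death receptor, had a log2 difference of 1.04 ± 0.27 (SE), adjusted p = 0.0356, and TNFRSF21, death receptor 6, had a log2 difference of 1.06 ± 0.21 (SE), adjusted p = 0.0108. The calls of CDKN1A and CFLAR ended without PH4d replicate 2, MG4d replicate 1 or MG4d replicate 2 (adjusted p of 0.0838 to 0.203). The call of GADD45A ended without MG4d replicate 2 (adjusted p = 0.0766). The call of TNFRSF21 ended without PH4d replicate 1, MG4d replicate 1 or MG4d replicate 2 (adjusted p of 0.0766 to 0.0988), where TNFRSF21 was at a log2 difference of 0.94 without PH4d replicate 1.

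YAP and TEAD targets, genes that the Hippo pathway's coactivators induce when cells spread, were called lower in 7 of 21 measured and higher in none (33.3% against 3.96%). AXL, a receptor tyrosine kinase, had levels of 6.33 and 8.24 on the PH4d arrays, against 9.94 and 10.10 on the MG4d arrays, a log2 difference of -2.73 ± 0.51 (SE), adjusted p = 0.00913. FJX1, a secreted four-jointed protein, had a log2 difference of -2.29 ± 0.40 (SE), adjusted p = 0.00641. DLC1, a GTPase-activating protein, was at least 1.92-fold lower, adjusted p = 0.00148. CCN2 (CTGF), a matricellular protein, had a log2 difference of -1.45 ± 0.36 (SE), adjusted p = 0.0307, and CCN1 was not called, at 7.66 and 8.15 in PH4d and 8.71 and 8.87 in MG4d. The list's count was 6 without PH4d replicate 1, 6 without PH4d replicate 2, 2 without MG4d replicate 1 and 1 without MG4d replicate 2. The 22 contractile genes of the SRF type had no call, with TAGLN at 8.52 and 9.32 in PH4d and 8.14 and 7.96 in MG4d. This rested on PH4d replicate 1, without which the contractile list had calls. TAGLN was at a log2 difference of 1.27 without PH4d replicate 1 and 0.48 without PH4d replicate 2. The call of AXL ended without MG4d replicate 1 or MG4d replicate 2 (adjusted p of 0.0635 to 0.0787). The call of FJX1 ended without MG4d replicate 2 (adjusted p = 0.0673). The call of CCN2 ended without PH4d replicate 1, MG4d replicate 1 or MG4d replicate 2 (adjusted p of 0.132 to 0.177), where CCN2 was at a log2 difference of -0.89 without PH4d replicate 1.

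In the ERBB list, 5 of 25 measured genes were called higher (20% against 8.32% of all genes) and 8 lower (32% against 3.96%). ERBB2, amplified in JIMT1 and the gene of HER2, had levels of 13.70 and 14.09 on the PH4d arrays, against 12.45 and 12.60 on the MG4d arrays, a log2 difference of 1.36 ± 0.23 (SE), adjusted p = 0.00554, and its neighbor on the amplicon PGAP3 had a log2 difference of 1.92 ± 0.24 (SE), adjusted p = 0.00153. The receptor gene ERBB3 had a log2 difference of 1.10 ± 0.29 (SE), adjusted p = 0.0363, while EGFR was not called, at 7.72 and 8.24 in PH4d and 8.90 and 8.75 in MG4d. The ligand HBEGF, which binds EGFR, had levels of 7.52 and 8.85 on the PH4d arrays, against 10.87 and 10.99 on the MG4d arrays, a log2 difference of -2.74 ± 0.47 (SE), adjusted p = 0.00592, and EREG, another EGFR ligand, had a log2 difference of -1.40 ± 0.27 (SE), adjusted p = 0.0106. Genes that damp the ERK pathway split: SPRED1 had a log2 difference of -2.02 ± 0.26 (SE), adjusted p = 0.00166, whereas SPRY1 was at least 2.05-fold higher, adjusted p = 0.0015. The calls of ERBB3 and EREG ended without MG4d replicate 1 or MG4d replicate 2. The call of ERBB2 ended without MG4d replicate 1 (adjusted p = 0.0612). The call of HBEGF ended without MG4d replicate 2 (adjusted p = 0.0587). The list counts were 6 without PH4d replicate 1, 5 without PH4d replicate 2, 2 without MG4d replicate 1 and 3 without MG4d replicate 2 for genes called higher, and 8 without PH4d replicate 1, 9 without PH4d replicate 2, 2 without MG4d replicate 1 and 1 without MG4d replicate 2 for genes called lower.

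In the insulin-like growth factor axis, IGFBP3, which binds the ligands outside the cell, had levels of 10.24 and 9.95 on the PH4d arrays, against 5.85 and 6.14 on the MG4d arrays, a log2 difference of 4.10 ± 0.35 (SE), adjusted p = 0.000532. H19, an imprinted noncoding RNA, was at least 5.49-fold higher, adjusted p = 0.00969, and FOXO4, a transcription factor that AKT excludes from the nucleus, had a log2 difference of 2.31 ± 0.25 (SE), adjusted p = 0.000981. In the PI3K list 6 of 30 measured genes were called higher (20% against 8.32%), and the count was 9 without PH4d replicate 1, 5 without PH4d replicate 2, 2 without MG4d replicate 1 and 2 without MG4d replicate 2. The other 3 of them were IGFBP5, IGFBP2 and DDIT4, and IRS2, an insulin receptor substrate, was called lower with a log2 difference of -1.17 ± 0.30 (SE), adjusted p = 0.0326. The call of DDIT4 ended without MG4d replicate 1 or MG4d replicate 2. That of IRS2 ended without PH4d replicate 2, MG4d replicate 1 or MG4d replicate 2. The call of H19 ended without MG4d replicate 1 or MG4d replicate 2 (adjusted p of 0.0715 to 0.0742). The calls of IGFBP5 and IGFBP2 ended without PH4d replicate 2, MG4d replicate 1 or MG4d replicate 2 (adjusted p of 0.0828 to 0.252).

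Epithelial surface genes were called higher in several lists. In the mucin and secretory list 5 of 8 measured genes were called higher (62.5% against 8.32%), and the count was 6 without PH4d replicate 1, 5 without PH4d replicate 2, 4 without MG4d replicate 1 and 3 without MG4d replicate 2. MUC1, a membrane mucin, had levels of 9.94 and 11.40 on the PH4d arrays, against 6.90 and 7.05 on the MG4d arrays, a log2 difference of 3.70 ± 0.42 (SE), adjusted p = 0.00118, and MUC16 had 9.91 and 11.37 on the PH4d arrays, against 6.98 and 6.97 on the MG4d arrays, a log2 difference of 3.67 ± 0.42 (SE), adjusted p = 0.00122. LCN2, an iron-binding protein of secretory epithelium, had a log2 difference of 3.42 ± 0.57 (SE), adjusted p = 0.00534, and S100P, a calcium-binding protein, had a log2 difference of 2.12 ± 0.27 (SE), adjusted p = 0.00166. S100A8, which pairs with S100A9 as calprotectin, was at least 9.57-fold higher, adjusted p = 0.00122. Of 20 junction genes 7 were called higher (35% against 8.32%), and the count was 7 without PH4d replicate 1, 5 without PH4d replicate 2, 4 without MG4d replicate 1 and 3 without MG4d replicate 2. They were CLDN7 (2.23 ± 0.33, adjusted p = 0.00344) and CLDN3 (2.44 ± 0.38, adjusted p = 0.00424), claudins that seal tight junctions, NECTIN4, an adhesion molecule, and CGN, RAB25, CLDN23 and CDH1. The calls of LCN2 and CLDN23 ended without MG4d replicate 2 (adjusted p of 0.052 to 0.0567). The call of NECTIN4 ended without MG4d replicate 1 or MG4d replicate 2 (adjusted p of 0.066 to 0.0713). The call of CDH1 ended without any 1 of the 4 arrays (adjusted p of 0.0671 to 0.25).

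The list for the transition from epithelial to mesenchymal cells holds epithelial genes, such as CDH3, beside mesenchymal ones. Of its 13 measured genes 3 were called higher and 3 lower (23.1% each, against 8.32% and 3.96%), so these counts give no direction of a mesenchymal program. The counts were 2 without PH4d replicate 1, 2 without PH4d replicate 2, 1 without MG4d replicate 1 and 0 without MG4d replicate 2 for genes called higher, and 3 without PH4d replicate 1, 2 without PH4d replicate 2, 0 without MG4d replicate 1 and 0 without MG4d replicate 2 for genes called lower. SNAI2 (Slug), a repressor of CDH1, had a log2 difference of -1.77 ± 0.34 (SE), adjusted p = 0.0098, and CDH2 (N-cadherin) had a log2 difference of -1.38 ± 0.31 (SE), adjusted p = 0.0192. TWIST2 lay just inside the threshold, with a log2 difference of -1.16 ± 0.34 (SE), adjusted p = 0.05. The intermediate filament gene VIM was not called, at 6.17 and 7.16 in PH4d and 7.15 and 7.36 in MG4d, and S100A4, often used as a mesenchymal marker, was called higher with a log2 difference of 1.90 ± 0.35 (SE), adjusted p = 0.00876. CDH3, the P-cadherin of basal epithelium, was also called higher, with a log2 difference of 1.31 ± 0.25 (SE), adjusted p = 0.0101. Among the stem cell surface markers CD24 was called higher, at 14.16 and 12.94 in PH4d and 11.80 and 11.90 in MG4d, and CD44, the hyaluronan receptor, lower, at 12.79 and 12.52 in PH4d and 13.83 and 14.02 in MG4d. The calls of SNAI2, CDH3 and CD44 ended without MG4d replicate 1 or MG4d replicate 2 (adjusted p of 0.0677 to 0.111). The call of CDH2 ended without PH4d replicate 2, MG4d replicate 1 or MG4d replicate 2 (adjusted p of 0.069 to 0.127). The call of TWIST2 ended without any 1 of the 4 arrays (adjusted p of 0.071 to 0.292). The call of S100A4 ended without MG4d replicate 2 (adjusted p = 0.0892). The call of CD24 ended without PH4d replicate 1, MG4d replicate 1 or MG4d replicate 2 (adjusted p of 0.101 to 0.21).

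Of 21 measured collagens and matrix genes, 4 were called lower (19% against 3.96% of all genes) and 1 higher (4.76% against 8.32%). The count lower was 3 without PH4d replicate 1, 4 without PH4d replicate 2, 2 without MG4d replicate 1 and 2 without MG4d replicate 2. The gene called higher was COL18A1 (1.97 ± 0.29, adjusted p = 0.00308). Of those called lower, THBS1, a secreted adhesive protein, was at least 2.61-fold lower, adjusted p = 0.00108. LAMB2, a laminin chain of basement membrane, had a log2 difference of 2.55 ± 0.34 (SE), adjusted p = 0.0021, and LAMA1 was at least 1.28-fold lower, adjusted p = 0.00421. The list of integrins and other adhesion proteins gave 1 call in each direction out of 20 (5% each, against 8.32% and 3.96%). No integrin gene was called higher: that call was DDR1, a collagen receptor tyrosine kinase, with a log2 difference of 1.88 ± 0.28 (SE), adjusted p = 0.00354, and the lower one ITGA6, a laminin receptor chain, with a log2 difference of -1.39 ± 0.35 (SE), adjusted p = 0.031. Of 30 pericellular proteases and inhibitors, 9 were called higher (30% against 8.32%) and 1 lower. KLK7, a secreted serine protease, had levels of 12.87 and 12.84 on the PH4d arrays, against 9.38 and 9.37 on the MG4d arrays, a log2 difference of 3.48 ± 0.25 (SE), adjusted p = 0.000327, and its replicates agreed within 0.03 on both surfaces. SLPI, a protease inhibitor, had a log2 difference of 2.19 ± 0.41 (SE), adjusted p = 0.00933. The call of ITGA6 ended without PH4d replicate 2, MG4d replicate 1 or MG4d replicate 2 (adjusted p of 0.132 to 0.172). The call of SLPI ended without MG4d replicate 2 (adjusted p = 0.0949). The protease count was 12 without PH4d replicate 1, 5 without PH4d replicate 2, 2 without MG4d replicate 1 and 1 without MG4d replicate 2.

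Reductases and lysosomal genes rose in part of their lists. AKR1B10, a reductase of retinal and other aldehydes, had levels of 11.21 and 11.81 on the PH4d arrays, against 5.81 and 5.25 on the MG4d arrays, a log2 difference of 5.98 ± 0.56 (SE), adjusted p = 0.000602. AKR1C3 had a log2 difference of 3.95 ± 0.44 (SE), adjusted p = 0.00116 and AKR1C2 had a log2 difference of 3.53 ± 0.35 (SE), adjusted p = 0.000723, members of a family whose probes may share signal. In the NRF2 and glutathione list 5 of 29 measured genes were called higher (17.2% against 8.32%). ABCC3, a transporter of conjugates, had a log2 difference of 2.45 ± 0.24 (SE), adjusted p = 0.000723. Of 29 autophagy and lysosome genes 8 were called higher and none lower (27.6%), among them GLB1, the lysosomal β-galactosidase (2.17 ± 0.21, adjusted p = 0.000723), and ULK1, the kinase that starts autophagy (1.53 ± 0.20, adjusted p = 0.00182). The lysosome count was 13 without PH4d replicate 1, 6 without PH4d replicate 2, 5 without MG4d replicate 1 and 4 without MG4d replicate 2.

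The retinoid list had 5 of 13 genes called higher (38.5% against 8.32%), and the count was 7 without PH4d replicate 1, 3 without PH4d replicate 2, 2 without MG4d replicate 1 and 3 without MG4d replicate 2. PLAAT4 (RARRES3), induced by retinoids and interferons, had a log2 difference of 5.70 ± 0.58 (SE), adjusted p = 0.000763, and CYP26A1, which degrades retinoic acid, was at least 4.97-fold higher, adjusted p = 0.00405. RARRES1 had a log2 difference of 2.83 ± 0.50 (SE), adjusted p = 0.00695, and ALDH1A3, which makes retinoic acid, was not called, at 13.20 and 12.87 in PH4d and 13.58 and 13.75 in MG4d. In the glycolysis and hypoxia list 6 of 40 were called higher (15% against 8.32%), and the count was 5 without PH4d replicate 1, 5 without PH4d replicate 2, 3 without MG4d replicate 1 and 2 without MG4d replicate 2. NDRG1, a hypoxia-induced growth suppressor, had levels of 11.65 and 11.19 on the PH4d arrays, against 7.40 and 7.85 on the MG4d arrays, a log2 difference of 3.80 ± 0.51 (SE), adjusted p = 0.002, and the glycolytic ALDOC had a log2 difference of 1.93 ± 0.27 (SE), adjusted p = 0.00238. ID1, a helix-loop-helix inhibitor of differentiation, had levels of 12.47 and 13.32 on the PH4d arrays, against 10.34 and 10.59 on the MG4d arrays, a log2 difference of 2.43 ± 0.33 (SE), adjusted p = 0.00222, and its upstream ligand BMP7 was at least 4.45-fold higher, adjusted p = 0.000981. Among lipid genes TM7SF2, a sterol reductase, had a log2 difference of 3.19 ± 0.25 (SE), adjusted p = 0.000478, and FABP5, which carries fatty acids, had a log2 difference of -2.61 ± 0.28 (SE), adjusted p = 0.000981. The call of RARRES1 ended without MG4d replicate 1 (adjusted p = 0.0713).

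Keratins and genes of squamous differentiation changed in both directions. In the desmosome and cornified envelope list 5 of 19 measured genes were called higher (26.3% against 8.32%) and 1 lower, and the count higher was 9 without PH4d replicate 1, 3 without PH4d replicate 2, 2 without MG4d replicate 1 and 2 without MG4d replicate 2. SPRR3, a small proline-rich protein of the cornified envelope, was at least 5.11-fold higher, adjusted p = 0.00122. PPL, a plakin of desmosomes, had levels of 8.06 and 9.03 on the PH4d arrays, against 6.36 and 6.21 on the MG4d arrays, a log2 difference of 2.26 ± 0.34 (SE), adjusted p = 0.00383. The exception was TGM2, a transglutaminase that cross-links proteins, with levels of 6.42 and 8.83 on the PH4d arrays, against 10.30 and 10.46 on the MG4d arrays and a log2 difference of -2.76 ± 0.63 (SE), adjusted p = 0.0214. Of 9 keratins, KRT16 had a log2 difference of 2.67 ± 0.47 (SE), adjusted p = 0.00679 and KRT15 was at least 1.86-fold higher, adjusted p = 0.0338, while KRT34, a hair keratin, was at least 2.73-fold lower, adjusted p = 0.0129. The calls of TGM2, KRT16 and KRT34 ended without MG4d replicate 1 or MG4d replicate 2 (adjusted p of 0.0587 to 0.133). The call of KRT15 ended without PH4d replicate 2, MG4d replicate 1 or MG4d replicate 2 (adjusted p of 0.131 to 0.165).

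In the complement and acute phase list 3 of 9 measured genes were called higher (33.3% against 8.32%) and none lower. CFB, a protease of the alternative complement pathway, had levels of 10.35 and 11.46 on the PH4d arrays, against 6.92 and 6.82 on the MG4d arrays, a log2 difference of 4.04 ± 0.52 (SE), adjusted p = 0.00179, and C3, the central complement protein, was at least 3.37-fold higher, adjusted p = 0.00354. Of 14 measured histone genes with polyadenylated transcripts 4 were called higher and none lower (28.6%), and the count was 6 without PH4d replicate 1, 3 without PH4d replicate 2, 3 without MG4d replicate 1 and 2 without MG4d replicate 2. H2BC21 had levels of 9.59 and 10.24 on the PH4d arrays, against 7.17 and 7.05 on the MG4d arrays, a log2 difference of 2.81 ± 0.27 (SE), adjusted p = 0.000635, and H2BC5 had levels of 12.05 and 12.26 on the PH4d arrays, against 9.60 and 9.41 on the MG4d arrays, a log2 difference of 2.65 ± 0.37 (SE), adjusted p = 0.00235. H2AC6 had a log2 difference of 2.26 ± 0.46 (SE), adjusted p = 0.0127. The call of H2AC6 ended without MG4d replicate 2 (adjusted p = 0.119).

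Immediate early genes, which answer growth factors within minutes, moved in both directions, with 3 of 23 measured called higher (13% against 8.32%) and 5 lower (21.7% against 3.96%). The counts were 6 without PH4d replicate 1, 1 without PH4d replicate 2, 0 without MG4d replicate 1 and 1 without MG4d replicate 2 for genes called higher, and 4 without PH4d replicate 1, 5 without PH4d replicate 2, 1 without MG4d replicate 1 and 1 without MG4d replicate 2 for genes called lower. FOS had levels of 8.72 and 8.64 on the PH4d arrays, against 6.00 and 5.66 on the MG4d arrays, a log2 difference of 2.85 ± 0.63 (SE), adjusted p = 0.0179, and 1 of the 2 MG4d arrays detected it. FOSL1, another AP-1 subunit, had levels of 7.01 and 9.06 on the PH4d arrays, against 10.29 and 10.38 on the MG4d arrays, a log2 difference of -2.29 ± 0.65 (SE), adjusted p = 0.046. IER5 had a log2 difference of -2.02 ± 0.39 (SE), adjusted p = 0.0104, and IER3 had a log2 difference of -1.47 ± 0.34 (SE), adjusted p = 0.0234. In the Wnt list 2 of 26 were called in each direction (7.69%), the share higher close to that of all genes (8.32%). The counts were 6 without PH4d replicate 1, 2 without PH4d replicate 2, 1 without MG4d replicate 1 and 1 without MG4d replicate 2 for genes called higher, and 4 without PH4d replicate 1, 5 without PH4d replicate 2, 1 without MG4d replicate 1 and 1 without MG4d replicate 2 for genes called lower. WLS, needed for Wnt secretion, had levels of 9.40 and 10.16 on the PH4d arrays, against 7.27 and 7.05 on the MG4d arrays, a log2 difference of 2.62 ± 0.33 (SE), adjusted p = 0.00166. SFRP1, a secreted Wnt antagonist, had levels of 10.62 and 10.79 on the PH4d arrays, against 12.47 and 12.76 on the MG4d arrays, a log2 difference of -1.91 ± 0.26 (SE), adjusted p = 0.0023. The ligand gene WNT5B was not called, at 7.14 and 8.66 in PH4d and 9.02 and 9.10 in MG4d, adjusted p = 0.117. MT2A, a metal-binding metallothionein, was the only 1 of 7 in its list to be called, with levels of 10.97 and 11.70 on the PH4d arrays, against 13.24 and 13.13 on the MG4d arrays and a log2 difference of -1.85 ± 0.29 (SE), adjusted p = 0.00418. The call of FOS ended without PH4d replicate 2, MG4d replicate 1 or MG4d replicate 2 (adjusted p of 0.0556 to 0.129). The call of FOSL1 ended without PH4d replicate 1, MG4d replicate 1 or MG4d replicate 2 (adjusted p of 0.0931 to 0.208). The calls of IER5 and IER3 ended without MG4d replicate 1 or MG4d replicate 2 (adjusted p of 0.0654 to 0.167).

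In lists of protein and RNA handling the counts moved with single arrays. In the list of ATF4 and unfolded protein response genes 2 of 32 were called higher (6.25% against 8.32% of all genes) and 1 lower (3.12% against 3.96%), among them DDIT3 (CHOP), a stress transcription factor, with a log2 difference of 1.51 ± 0.35 (SE), adjusted p = 0.0217, and PPP1R15A, which restores translation after stress, with a log2 difference of -1.37 ± 0.31 (SE), adjusted p = 0.0197. Of 26 cytosolic heat shock genes 2 were called lower (7.69% against 3.96%), HSPA4 and HSPA4L, and 9 without PH4d replicate 1 and 0 without any 1 of the other 3 arrays. Of 37 splicing and RNA-binding genes 3 were called lower (8.11%) and none higher, with HNRNPA1 at 7.13 and 5.66 in PH4d and 8.50 and 8.57 in MG4d, and 16 were called lower without PH4d replicate 1 and 0 without any 1 of the other 3 arrays. Of 64 mitochondrial ribosomal genes 3 were called lower (4.69%) and none higher, and the count was 13 without PH4d replicate 1, 2 without PH4d replicate 2, 0 without MG4d replicate 1 and 0 without MG4d replicate 2. The count of genes called higher in the ATF4 list was 7 without PH4d replicate 1, 1 without PH4d replicate 2, 1 without MG4d replicate 1 and 1 without MG4d replicate 2. In cholesterol and fatty acid synthesis 2 of 28 genes were called lower (7.14%), or 7 without PH4d replicate 1. SQLE, the squalene epoxidase, had a log2 difference of -1.42 ± 0.34 (SE), adjusted p = 0.024, and ACAT2, an acetyl-CoA acetyltransferase, had a log2 difference of -1.25 ± 0.30 (SE), adjusted p = 0.025. The calls of DDIT3, HSPA4, HSPA4L, HNRNPA1, SQLE and ACAT2 ended without PH4d replicate 2, MG4d replicate 1 or MG4d replicate 2 (adjusted p of 0.0603 to 0.213). The call of PPP1R15A ended without PH4d replicate 1, MG4d replicate 1 or MG4d replicate 2 (adjusted p of 0.0782 to 0.158), where PPP1R15A was at a log2 difference of -0.95 without PH4d replicate 1.

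**Figure D5:**
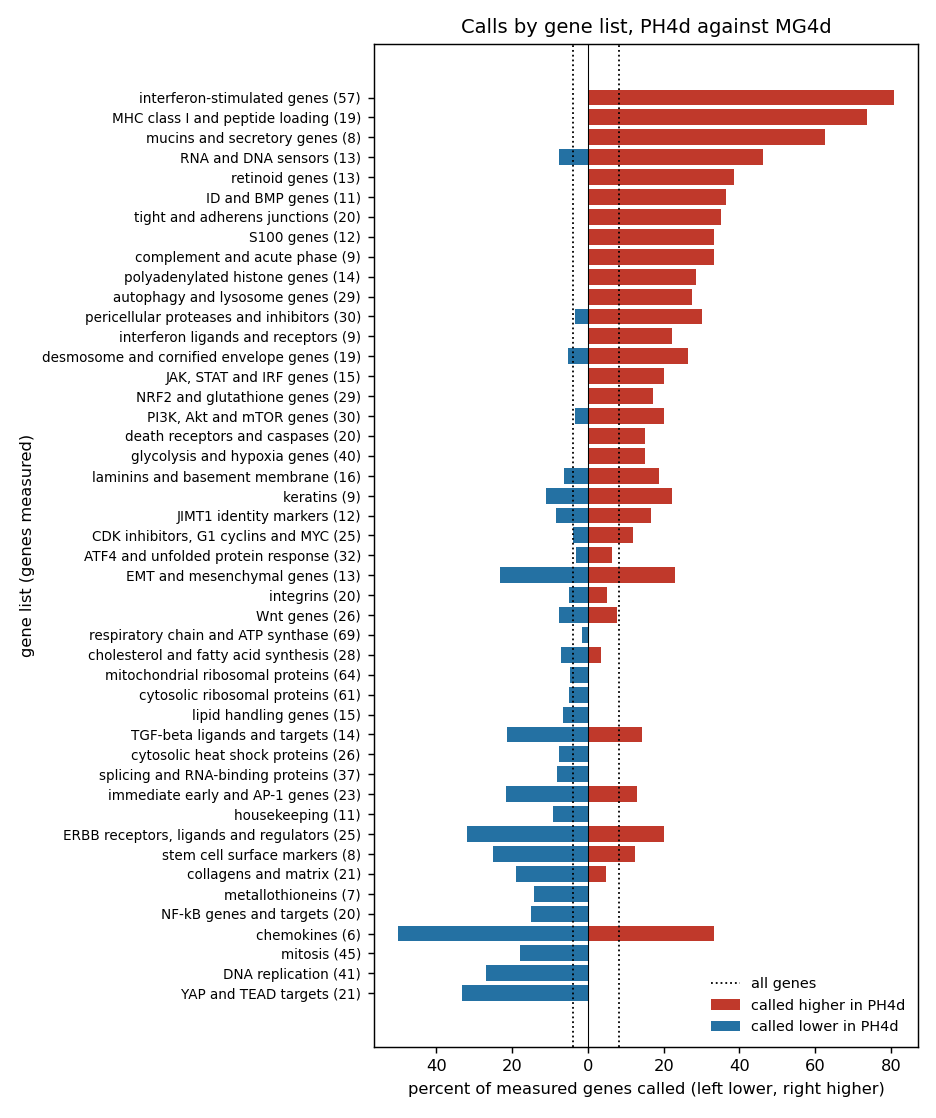
Percent of the measured genes of each list that were called higher (right, red) or lower (left, blue) in PH4d, for lists with at least 6 measured genes and at least 1 call, with the number measured in parentheses and dotted lines at the shares over all genes (8.32% and 3.96%). The interferon list reaches 80.7% and MHC class I 73.7%, and the YAP and TEAD list has the longest bar to the left after the chemokines.

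Housekeeping genes had 1 call of 11, HPRT1, with a log2 difference of -1.35 ± 0.29 (SE), adjusted p = 0.0152. Among 61 cytosolic ribosomal protein genes 3 were called lower (4.92% against 3.96%) and none higher, and the count was 6 without PH4d replicate 1, 2 without PH4d replicate 2, 0 without MG4d replicate 1 and 1 without MG4d replicate 2, and among 69 respiratory chain genes 1 was called lower (1.45%), or 3 without PH4d replicate 1. The difference between the surfaces was compared with that at 7 days in 1 fit. It differed between the days for 3 genes, 0.0273% of 10970, and for 635 at an unadjusted p under 0.05. For SLC2A10, a glucose transporter, PH4d lay above MG4d by 2.97, with levels of 10.43 and 10.00 in PH4d and 7.25 and 7.24 in MG4d, while PH7d was at 9.96 and 9.87 and MG7d at 10.16 and 9.81. The call of HPRT1 ended without PH4d replicate 2, MG4d replicate 1 or MG4d replicate 2 (adjusted p of 0.0819 to 0.123), where HPRT1 was at a log2 difference of -0.92 without PH4d replicate 2.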

How the data were processed

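RNA of 12 samples was hybridized to Illumina HumanHT-12 v4 BeadChips. Bead intensity and detection p-value, which sets a probe against the negative controls of its array, were used as deposited by the authors, without normalization. The authors' processed table holds log2 values that they variance-stabilized with lumi and brought to equal quantiles. Of its 47323 rows 38524 carry the ID of another probe, so it served as an alternative only, after rows were matched by their ranks on all 12 arrays, which agreed exactly.

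The normexp background model was fitted with those p-values (offset 16), followed by quantile normalization and log2 (limma 3.58.1, R 4.3.3). Probes were detected at a p under 0.01 and kept where both arrays of 1 of the 6 groups detected them. Platform annotation gave 30113 probes 1 symbol, 8 several and 17202 none here. The brightest probe stood for its gene. A linear model with 6 group means and moderated variances (lmFit, eBayes) had 6 residual degrees of freedom, and p-values were adjusted by Benjamini-Hochberg over all 10970 genes. If both arrays of 1 group failed to detect a gene, only a bound of its fold is given. Its dim side is then taken, on each array, at the weakest signal of any detected probe, or at the gene's measured value where that is greater. With 2 arrays a group, the number of arrays limits the precision. The code was tested on simulated data.

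Named were the 15 largest rises and 15 largest falls that passed the test without overlap, up to 5 called members of a list (or the 3 with the widest gap), a fixed set of genes and the genes that differed between days. B2M, CCN1, CGAS, DDIT4, DDX60, EIF2AK2, ERBB3, EREG, ICAM1, IFIT3, IFNAR1, IFNAR2, IFNLR1, IL10RB, IL6, IRS2, ISG15, MKI67, NFKB1, PCNA, PSMB10, PSMB8, PSMB9, RAB25, RELA, RELB, TAP1 and TAPBP were added after their values were seen. Members and lists were chosen with earlier results of these data known. Alternatives changed the background, scaling, offset, filter, probe summary, values, arrays in the fit, array weights and a block by title suffix, and left out each array.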

Additional observations from a re-analysis of the deposited data

Results flagged for a closer look

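For 3 genes the difference between polyHEMA and Matrigel changed between the days by the test of that change itself, in limma over 10970 genes. For ALDOC, a brain-type aldolase of glycolysis, PH4d lay above MG4d by 1.93 and PH7d below MG7d by 2.20 on the log2 scale, a change of 4.12 ± 0.38 (SE), adjusted p = 0.0159. Its levels were 10.11 and 10.14 in PH4d and 8.09 and 8.31 in MG4d, and 8.90 and 9.44 in PH7d and 11.57 and 11.17 in MG7d, so both polyHEMA arrays were above both Matrigel arrays at 4 days and below both at 7 days. For SLC2A10 the change was 3.04 ± 0.33, adjusted p = 0.0314, and for SLC1A6, a glutamate transporter that neither MG4d array detected, 2.95 ± 0.34, adjusted p = 0.0422. None of the 3 was called without MG4d replicate 1 (adjusted p of 0.219 to 0.363), without MG4d replicate 2 (0.147 to 0.328) or with array weights (0.157 to 0.401), and the call of SLC1A6 also ended without PH4d replicate 2 (0.058), with the replicate block (0.0634) and with the authors' processed values (0.188).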

How the results depend on the processing

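No gene that the naming rule gave and that was called changed direction under any of the 16 alternatives. For many of these the outcome was fixed in advance. The groups of called genes did not overlap, so leaving out an array could not turn a sign. The fits with 4 arrays, array weights or the replicate block compared the same group means. Only changes of background, scaling, offset, filter, probe summary or values could have reversed a gene. The spread of the PH4d pair, in which 4183 genes were at least 2-fold apart, limits these data. An array left alone in its group was assumed to vary like the other groups. The count of called genes was 1347 (913 higher, 434 lower), against 852 in all without background correction (586 and 266, of which 580 and 231 were among the 913 and 434), 613 with the authors' processed values (425 and 188, with 417 and 166 shared), 440 with array weights (352 and 88, with 349 and 88 shared) and 87 with only the 4 arrays in the fit (79 and 8, all shared). Without 1 array the count ranged between 369 and 3483 (higher 296 to 1830, lower 73 to 1653). Without PH4d replicate 1 and PH7d replicate 1, an alternative chosen after seeing the data, it was 4530 (2134 and 2396), and without PH4d replicate 2 and PH7d replicate 2, chosen likewise, 1812 (1055 and 757). Array weights gave the PH4d arrays 0.171 and the MG4d arrays 2.71. The count of called genes on the lists was 252, against 125 with array weights, 46 with 4 arrays, 108 to 410 with 1 array left out, and 501 without PH4d replicate 1 and PH7d replicate 1. The share of higher calls was 67.8%, and 90.8% with 4 arrays, 80% with array weights and 47.1% without replicate 1 of both polyHEMA groups. Both PH4d arrays lay 2-fold outside both MG4d arrays for 864 genes, for 451 without background correction, for 315 with the authors' values and for 1050 to 4046 with 1 array left out. The day difference had 3 called genes, 0 with array weights and 0 to 4 with 1 array left out. The title suffix was used as a replicate block, which gave 1636 called genes (1053 and 583), and kept all 1347. It is not a pairing that the labels state: replicate differences of PH4d and MG4d had a correlation of 0 over 10970 genes, and those of PH4d and PH7d 0.875. With median scaling 1202 genes were called. Of the 190 called genes that the naming rule gave, only 37 kept their call with the 4 arrays alone in the fit. With array weights 105 kept it, and with the authors' processed values 136. The cause of these changes was not tested. Of the 190 genes that the naming rule gave and that were called, 84 kept their call whichever array was left out.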
